A study of Homo sapiens with 6 samples.

Results

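Mitochondrial ribosomal proteins were measured in HT1080, a cell line established from a human fibrosarcoma, on 6 single-channel oligonucleotide arrays. The members were taken by name: every gene whose symbol in the platform annotation is MRPL or MRPS followed by a number and at most a letter A to C, on probe sets with 1 symbol. This gave 51 genes on 64 probe sets, of 11963 singly named genes on 19065 probe sets. In each of the 3 groups the cells carried the pGUS vector and expressed GFP. The mock group (2 arrays, titled GUS) had nothing more, the MT1 group (2 arrays) also expressed an siRNA against MT1-MMP, a membrane-bound collagenase, and the alpha3 group (2 arrays) also expressed an siRNA against integrin alpha3, a laminin receptor chain. Separate cultures, and whether a line was 1 clone, are not mentioned in the labels, so the p-values reflect array-to-array spread alone, possibly a technical one.

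The mitochondrial ribosome translates the few messages of the mitochondrial genome, all of them for membrane subunits of the respiratory chain and ATP synthase. Its RNA comes from mitochondrial DNA, whereas all of its proteins are encoded in the nucleus, made in the cytosol and imported. Some descend from bacterial ribosomal proteins and others were added during the evolution of mitochondria. The small subunit holds the decoding centre, and the large subunit holds the peptidyl transferase centre and the exit tunnel. A symbol does not always give the subunit, since the products of MRPS30 and MRPS18A sit in the large one. By this assignment 18 of the 51 genes belonged to the small subunit and 33 to the large subunit, and 31 had a bacterial counterpart while 20 had none.

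The promoters of the members share short sequences, which the choice by name did not use. Promoter sequences (250 bases before to 50 after each start, RefSeq, GRCh38.p14) were matched for 45 of the 51 genes. The letters AAGATGGC, the core of the motif of the zinc finger factor YY1, occurred on either strand in the promoters of 13 of the 45 genes (28.9%). They occurred for 7.13% of the 6717 genes tested that had a promoter, and for 3.52% of all 27305 genes with a promoter. Of the 14 matches, 13 read in the direction of the gene and 11 lay past the start, by 8 to 35 bases. The windows of 30 bases below are examples in which the motif stands shortly past the start, by 8 to 23 bases, in genes of both subunits. MRPL20 (15 bases) and MRPL42 (8 bases) also fall in this range and are not shown. The letters contain ATG, and whether this was the start codon of the protein was not examined. The motif is in capitals, and each window is written 5′ to 3′ on the strand of its gene.

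MRPS30 (chr5:44808949-44808978, plus strand): aatcgcgggcaAAGATGGCggcggccaggt
MRPS18A (chr6:43687764-43687793, minus strand): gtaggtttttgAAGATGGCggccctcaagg
MRPS7 (chr17:75261887-75261916, plus strand): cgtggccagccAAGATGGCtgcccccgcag
MRPL46 (chr15:88467362-88467391, minus strand): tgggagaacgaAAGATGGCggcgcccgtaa
MRPS18B (chr6:30617852-30617881, plus strand): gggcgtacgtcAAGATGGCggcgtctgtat
MRPL49 (chr11:65122333-65122362, plus strand): cgtagcaggtaAAGATGGCagctaccatgt
MRPS27 (chr5:72320206-72320235, minus strand): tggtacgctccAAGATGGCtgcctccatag
MRPS10 (chr6:42217834-42217863, minus strand): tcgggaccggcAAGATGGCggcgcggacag

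The letters CCGGAAG, the core bound by factors of the ETS family such as GABPA, a regulator of nuclear genes for mitochondria, occurred in the promoters of 19 of the 45 genes (42.2%). The share was 21.9% of the tested genes with a promoter and 12.2% of all genes with a promoter. Of the 25 matches, 19 lay within 50 bases of the start, and 0 overlapped a match to AAGATGGC. The following windows have the motif or its complement CTTCCGG in capitals. They belong to MRPL33, the member with the highest fold change for MT1 siRNA against mock, and to members below 0. The other members with these letters are not shown, and of the 18 tested, 10 were below 0.

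MRPL33 (chr2:27771700-27771729, plus strand): cgggccgtgccCCGGAAGcagttgttgttg
MRPS12 (chr19:38930928-38930957, plus strand): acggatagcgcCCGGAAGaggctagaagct
MRPS18A (chr6:43687804-43687833, minus strand): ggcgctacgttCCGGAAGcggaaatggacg
MRPL3 (chr3:131502985-131503014, minus strand): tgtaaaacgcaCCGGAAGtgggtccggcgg
MRPL18 (chr6:159790430-159790459, plus strand): gggacttgctaCTTCCGGgtcggtggcgtc

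Of the other motifs searched on both strands, GCGCATGC (NRF1) occurred for 5 of the 45 genes, against 6.40% of the tested genes. CACGTG (the E-box) also occurred for 5 genes, against 13.1%. GGGCGG (SP1) occurred for 27 of the 45 genes, against 76.2% of the tested genes. A match describes letters in these windows and is no evidence of binding.

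The array values are signals on a linear scale that were scaled to a common level before deposit, and differences are given as log2 fold changes of signal + 32. The offset understates changes of dim probe sets. The median signal of an array lay between 72.9 and 83.1. MMP14, which encodes MT1-MMP, had 1971 and 3064 in mock, 812 and 717 in the MT1 group and 999 and 1804 in the alpha3 group, so both siRNA groups lay below mock. ITGA3 had 1138 and 1290 in mock, 1481 and 1634 in the MT1 group and 148 and 347 in the alpha3 group. The epithelial markers EPCAM, CDH1, CLDN4 and KRT19 had at most 29.3 on any array. All 5 mesenchymal markers were measured and lay above 0 for MT1 siRNA against mock, opposite to most members, with a median of 0.36 and adjusted p of at least 0.180 in limma. FN1 (fibronectin) had 1869 and 5529 in mock and 12630 and 9354 in the MT1 group (1.75), and SPARC had 3188 and 3287 against 8295 and 5052 (0.99). VIM (0.23), CDH2 (0.29) and TIMP1 (0.36) were closer to 0. For alpha3 siRNA against mock CDH2 was at 0.97 (adjusted p = 0.851), with 291 and 490 in mock and 1116 and 536 in the alpha3 group. The part of these differences in the members' values was not tested. The spiked hybridisation controls, which are added to each sample before hybridisation, were brighter in the MT1 group. Relative to the mock mean, the median of their 18 probe sets was 2.30 and 1.29 there. It was 0.927 and 1.07 in mock, and 0.812 and 0.841 in the alpha3 group. The 3 comparisons share arrays in pairs, so their results are not independent of each other. In RNA of whole cultures, fewer cells of a kind and less RNA per cell cannot be told apart.

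Of the 51 members, 49 lay above the filter on dim probe sets (a mean signal of 47.5) and entered the fit of 8045 genes. The 2 below it were MRPL41, with signals from 5.60 to 25.9, and MRPS18C. MRPS18C had 29.9 and 35.3 in mock, 72.8 and 43.3 in the MT1 group and 30.2 and 35.3 in the alpha3 group. Among the 49, the signal ranged from 74.1 to 4579, a range that reflects probe sequences as well as RNA. The members varied little across the arrays: the brightest array exceeded the dimmest by a median of 1.59 times, against 1.79 times over all genes tested. The ratio was above 2 for 6 of the 49 members (12.2%), against 37.3% of all genes. The members and all genes were not matched for brightness, on which such a ratio can depend.

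The steadiest members were found in both subunits. MRPL22 had 451 and 453 in mock, 420 and 434 in the MT1 group and 429 and 421 in the alpha3 group, a range of 1.08 times. MRPS22, a small subunit protein without a bacterial counterpart, had 1574 and 1580 in mock, 1525 and 1681 in the MT1 group and 1725 and 1628 in the alpha3 group. Its MT1 arrays lay on both sides of the mock arrays. MRPL40 had 636 and 640 in mock, 582 and 611 in the MT1 group and 647 and 680 in the alpha3 group, so its groups did not overlap although the range was small.

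With MT1-MMP siRNA against mock, most members had lower signals. The log2 fold change was below 0 for 34 of the 49 members (69.4%), against 49.7% of all genes tested, and its median was -0.17 against 0.00 for all genes. None passed the threshold in limma: 0 of 49 members and 0 of 8045 genes (0%) had an adjusted p under 0.05, and the lowest adjusted p of a member was 0.210. At an unadjusted p under 0.05, 9 members were lower and 0 were higher, where 7.66% of all genes were lower and 6.76% higher. The MT1 arrays lay below both mock arrays for 21 members (42.9%) and above both for 2 (4.08%), against 25.3% and 24.6% of all genes.

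The difference was uneven between the 2 arrays of the group. Replicate 1 of the MT1 group was the dimmest of the 6 arrays for 30 of the 49 members, against 23.7% of all genes. Relative to each gene's mean over the 6 arrays, the median member stood at -0.25 and -0.05 on the MT1 arrays, 0.15 and -0.04 in mock, and 0.08 and 0.13 in the alpha3 group, while the median over all genes was at most 0.01 on any array. Mock replicate 2 and MT1 replicate 2 were thus nearly level. Without MT1 replicate 1 the median fold change was -0.08 with 29 members below 0. Without mock replicate 1 it was -0.10 with 33 below 0, without mock replicate 2 it was -0.27, and without MT1 replicate 2 it was -0.29. With cyclic loess normalization it was -0.10 with 30 below 0. MT1 replicate 1 was also the array with the brightest hybridisation controls (2.30), whose part in the result was not tested.

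**Figure D1:**
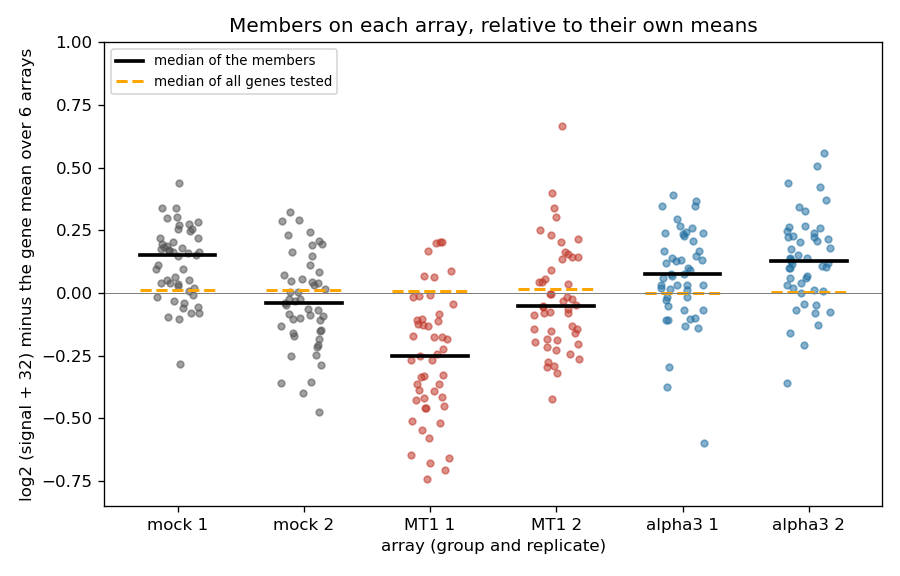
Each point is 1 of the 49 members on 1 array, as log2(signal + 32) minus the mean of that gene over the 6 arrays, for the mock (grey), MT1 (red) and alpha3 (blue) groups. The black lines, the members' medians, run from -0.25 on MT1 replicate 1 to 0.15 on mock replicate 1, and the dashed orange lines, the medians of all 8045 genes, stay near 0.

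**Figure D2:**
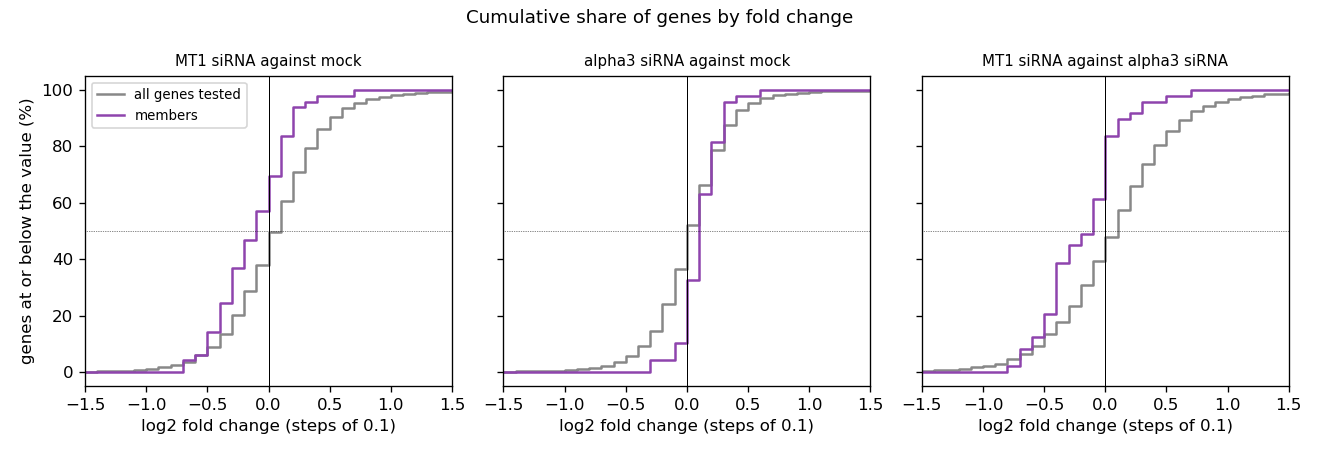
The cumulative share of genes (vertical axis, percent) at or below a given log2 fold change (horizontal axis) is drawn for the 49 members in purple and all 8045 genes in grey, in a panel for each comparison. The members' curve lies to the left of the genes' curve around 0 in both comparisons with the MT1 group in front, where 69.4% and 83.7% of members lie below 0, and it is steeper than the genes' curve for alpha3 siRNA against mock.

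Among the members with the lowest fold changes, those of the large subunit came first. MRPL15, a conserved core protein, had 1352 and 1391 in mock, 649 and 997 in the MT1 group and 1118 and 1331 in the alpha3 group. Its log2 fold change was -0.75 (SE 0.23, adjusted p = 0.220), from -1.04 to -0.45 when single arrays were left out. MRPL12, the stalk protein that recruits translation factors and also binds the mitochondrial RNA polymerase, had 1121 and 1067 in mock, 660 and 762 in the MT1 group and 1054 and 1226 in the alpha3 group. The log2 fold change was -0.60 (SE 0.18, adjusted p = 0.220), and the MT1 arrays stood apart from the other 4. MRPL4, which lines the exit tunnel, had 598 and 537 in mock, 371 and 381 in the MT1 group and 561 and 783 in the alpha3 group. Here too the MT1 arrays were the 2 lowest, and the fitted difference was -0.55 (SE 0.21, adjusted p = 0.290).

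MRPS30 and MRPS18A, both large subunit proteins of metazoan mitochondria in spite of their symbols, were next to these. MRPS30 had 652 and 648 in mock, 340 and 438 in the MT1 group and 532 and 611 in the alpha3 group, and its fitted difference of -0.71 (SE 0.20, adjusted p = 0.210) had the lowest adjusted p of all members. A second, dimmer probe set of MRPS30 did not share this, with 83.0 and 119 in mock, 134 and 113 in the MT1 group, and a log2 fold change of 0.23. The mean of both probe sets gave -0.24. MRPS18A had 569 and 479 in mock, 300 and 385 in the MT1 group and 391 and 388 in the alpha3 group (log2 fold change -0.57, SE 0.20, adjusted p = 0.270). Its other probe set gave -0.33 for MT1 siRNA, with 382 and 390 in mock against 304 and 298.

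In the small subunit the lowest was MRPS12, the counterpart of the bacterial decoding-centre protein at which streptomycin resistance mutations arise. It had 1050 and 1101 in mock, 661 and 792 in the MT1 group and 1254 and 1162 in the alpha3 group. The 3 groups did not overlap, and the fitted difference was -0.55 (SE 0.18, adjusted p = 0.248). Its 4 probe sets differed: 2 of them gave -0.54 and -0.55, another gave -1.16 (152 and 170 in mock, 68.2 and 42.4 in the MT1 group), and a dim one gave 0.18 (47.2 and 55.7 in mock, 65.1 and 59.6 in the MT1 group). MRPS18B, a paralog of MRPS18A that does sit in the small subunit, had 821 and 630 in mock and 482 and 561 in the MT1 group (-0.44, adjusted p = 0.372). A further MRPS18B probe set gave -0.30, and the first ran from -0.63 to -0.26 with single arrays left out. Of the 3 MRPS18 paralogs, MRPS18A and MRPS18B thus had MT1 arrays below the mock arrays, while the dim MRPS18C had them above.

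On the other side stood MRPL33, the counterpart of a small protein of the bacterial large subunit. It had 2045 and 1395 in mock, 2251 and 3117 in the MT1 group and 1280 and 2155 in the alpha3 group, which put the fitted difference at 0.64 (SE 0.30, adjusted p = 0.367). The MT1 arrays were the 2 brightest, but the arrays within each group differed widely, and the difference ran from 0.37 to 0.91 with single arrays left out. MRPS15, a conserved small subunit protein, had 218 and 187 in mock and 245 and 297 in the MT1 group (0.37, adjusted p = 0.490). The next were MRPL24 (0.22), MRPL44 (0.19), MRPS10 (0.16) and MRPL48 (0.14), whose MT1 and mock arrays overlapped. MRPL24 had 1306 and 984 in mock against 1260 and 1404, and MRPL48 had 466 and 451 against 563 and 460. With single arrays left out they ran from 0.03 to 0.42 and from 0.002 to 0.28. MRPL44, which carries an RNase III-like fold, had 159 and 85.5 in mock against 130 and 148. MRPS10 had 547 and 433 in mock against 445 and 668.

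Among the remaining members, MRPL9 and MRPL57 had probe sets that differed in size, and those of MRPS31 differed in sign. MRPL9 gave -0.24 on its brightest probe set, with 689 and 535 in mock against 468 and 552, and -0.57 on the other, and the first ran from -0.42 to -0.07 with single arrays left out. MRPL57 gave -0.37 on its brightest, with 1678 and 1850 in mock against 1277 and 1450, and -0.08 and -0.04 on dim ones. MRPS31 gave 0.08, with 227 and 206 in mock against 210 and 255, and -0.12 on its other probe set. MRPL28 had 448 and 568 in mock against 389 and 508, a log2 fold change of -0.17. The gene for the ribosome rescue factor MRPL58, which frees peptides from stalled ribosomes, had 586 and 427 in mock against 311 and 386 (-0.49, adjusted p = 0.364).

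**Figure D3:**
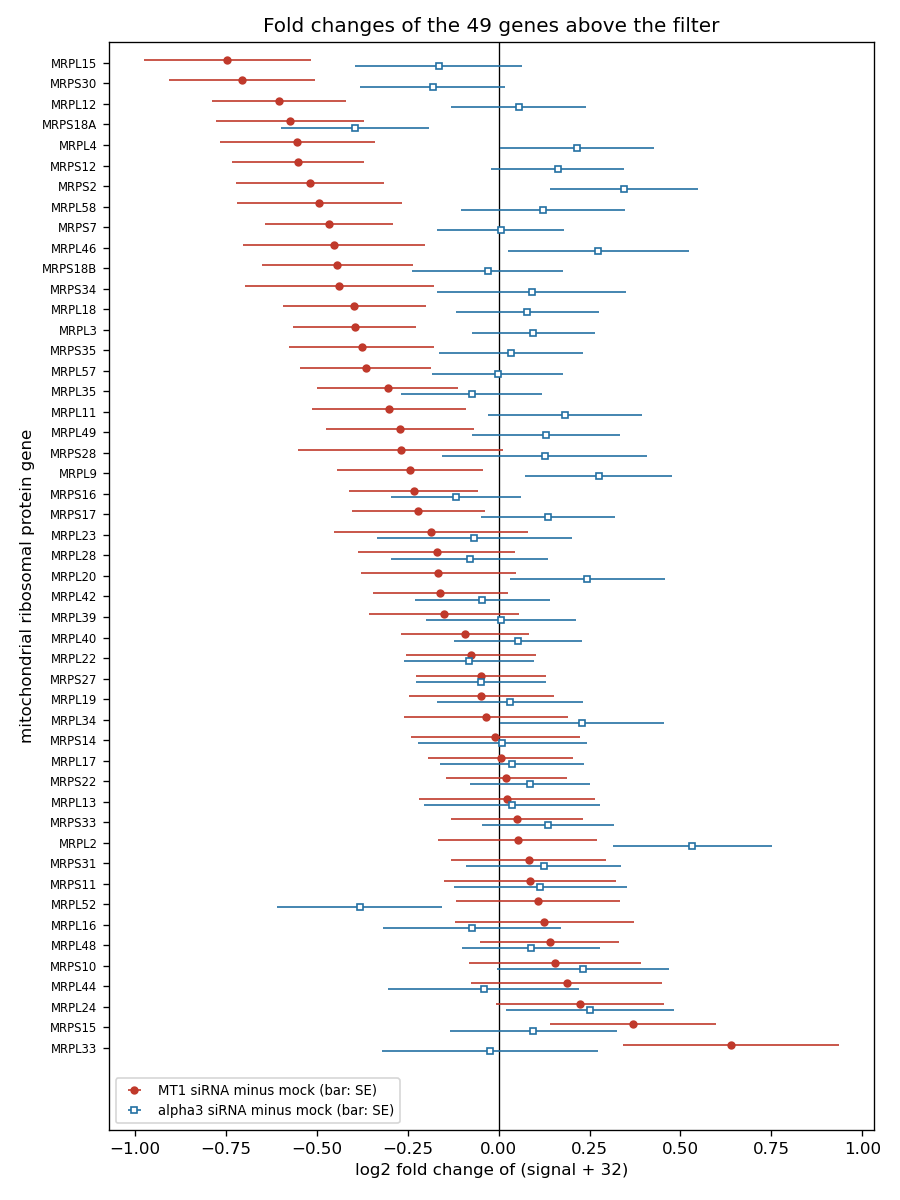
Log2 fold changes (horizontal axis) of the 49 members above the filter, ordered by the value for MT1 siRNA minus mock (red circles), with alpha3 siRNA minus mock as open blue squares; bars are standard errors from limma. The red values run from -0.75 for MRPL15 to 0.64 for MRPL33, while most blue values lie near or above 0.

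**Figure D4:**
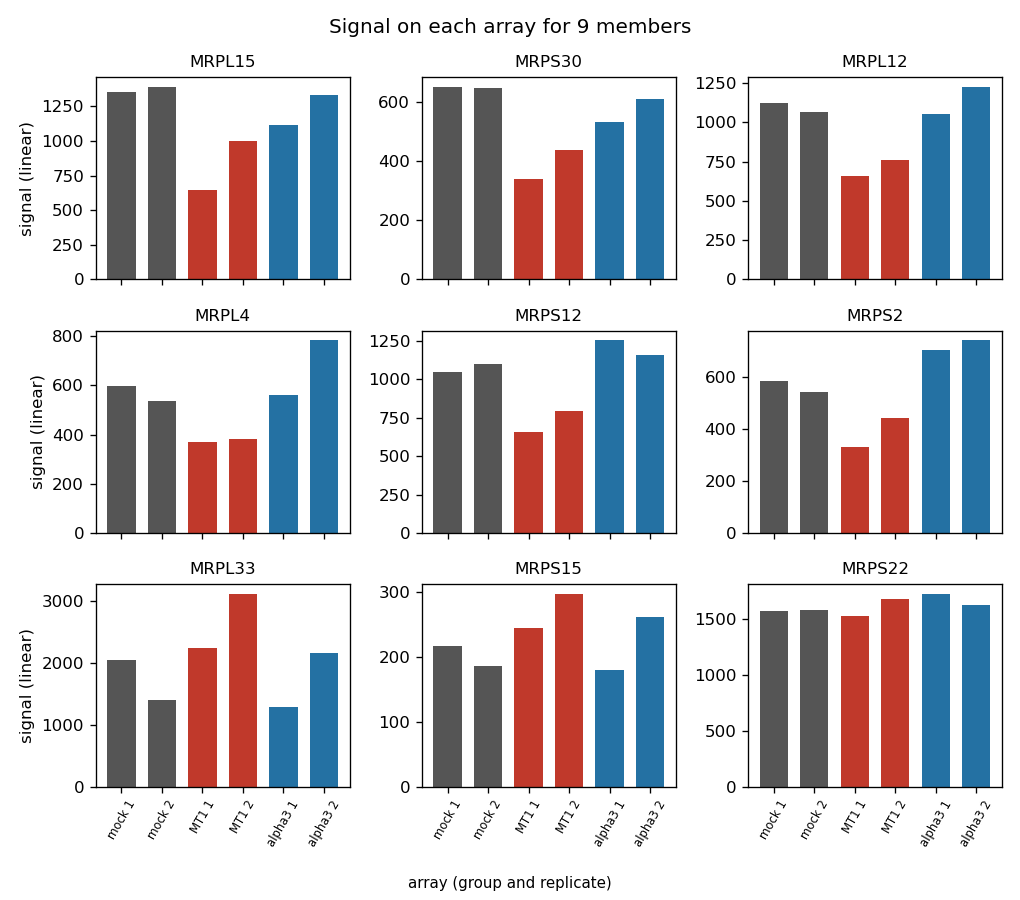
Bars give the linear signal on each of the 6 arrays (mock grey, MT1 red, alpha3 blue) for 9 members. The MT1 arrays are the 2 lowest for MRPL15, MRPS30, MRPL12, MRPL4, MRPS12 and MRPS2 and the 2 highest for MRPL33, and MRPS22 is nearly level.

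Both subunits had a median below 0. The 17 small subunit members above the filter had a median log2 fold change of -0.22 with 11 below 0, and the 32 large subunit members had -0.17 with 23 below 0. Without MT1 replicate 1 the medians were -0.06 with 9 small subunit members below 0 and -0.11 with 20 large subunit members below 0. With cyclic loess they were -0.13 with 9 below 0 and -0.10 with 21 below 0. The 30 members with a bacterial counterpart had a median of -0.18 with 21 below 0, and the 19 without one had -0.16 with 13 below 0. The 7 small subunit members without a bacterial counterpart had -0.05, and the 10 with one had -0.23. In the large subunit the order was the other way, with -0.22 for the 12 members without a counterpart and -0.17 for the 20 with one. None of these differences between classes was tested.

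The members were also divided by promoter letters. The 13 members with AAGATGGC had a median of -0.27 with 11 below 0, and the 30 tested members with a promoter lacking it had -0.12 with 19 below 0. With CCGGAAG the median was -0.13 over 18 members with 10 below 0, and without it -0.22 over 25 with 20 below 0. These differences were not tested either.

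Several members start close to a gene on the other strand, so that both start sites lie in 1 stretch of DNA. Within 1000 bases, 19 of the 45 members with a promoter had such a neighbour, and in 7 pairs both genes were measured. Both partners were below 0 in 3 pairs, and in the other 4 the partners had opposite signs. MRPS12 (-0.55) starts 181 bases from SARS2, the mitochondrial seryl-tRNA synthetase, which had 227 and 218 in mock against 269 and 227 (0.14). MRPL46 (-0.45) and MRPS11 (0.09), 1 for each subunit, start 320 bases apart. MRPS11 had 560 and 366 in mock and 441 and 530 in the MT1 group, while MRPL46 had 277 and 341 against 168 and 277. MRPS2 (-0.52) was paired with PIERCE1 (0.26) and MRPL49 (-0.27) with FAU (0.09). The pairs in which both were below 0 were MRPS7 (-0.47) with GGA3 (-0.01), MRPS18B (-0.44) with PPP1R10 (-0.18), and MRPL40 (-0.09) with HIRA (-0.12).

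With alpha3 siRNA against mock the members' differences were small. The log2 fold change was above 0 for 33 of the 49 members and below 0 for 16 (32.7%, against 52.0% of all genes), with a median of 0.05 against -0.01 for all genes. In limma 0 members passed, against 2 of 8045 genes (0.0249%), and the lowest adjusted p of a member was 0.855. At an unadjusted p under 0.05 there was 1 higher member and 0 lower ones, against 2.51% and 3.22% of all genes. The arrays did not overlap for 13 higher members (26.5%) and 6 lower ones (12.2%), against 16.4% and 18% of all genes. The median depended on single arrays: it was 0.16 when mock replicate 1 was left out, 0.00 with 24 members below 0 when mock replicate 2 was, and 0.02 when alpha3 replicate 2 was.

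The member higher at an unadjusted p under 0.05 was MRPL2, a protein close to the peptidyl transferase centre, with 127 and 148 in mock and 185 and 243 in the alpha3 group (log2 fold change 0.53, adjusted p = 0.855). In the MT1 group it had 129 and 159, level with mock. MRPS2, at the back of the small subunit, had 585 and 541 in mock and 705 and 742 in the alpha3 group (0.34, adjusted p = 0.875), and neither pair overlapped the other. MRPL9 (0.28) and MRPL46 (0.27) followed, but ran from 0.10 to 0.45 and from 0.14 to 0.41 when single arrays were left out. The other probe set of MRPL9 gave 0.007, with overlapping arrays. On the lower side were MRPS18A (-0.40, 0.13 on its other probe set, -0.14 for their mean), MRPL52 (-0.38), MRPS30 (-0.18) and MRPL15 (-0.16). The dimmer probe set of MRPS30 gave -0.03. With single arrays left out MRPL52 ran from -0.58 to -0.19, MRPS30 from -0.28 to -0.09 and MRPL15 from -0.29 to -0.04. MRPL52 had 96.1 and 136 in mock and 74.1 and 87.3 in the alpha3 group, and 123 and 130 in the MT1 group.

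Against each other, the siRNA groups gave the most one-sided split of the members. For MT1 siRNA against alpha3 siRNA, 41 of the 49 members (83.7%) were below 0, against 48.1% of all genes, with a median of -0.18 against 0.02. In limma 0 members passed, against 112 of 8045 genes (1.39%). At an unadjusted p under 0.05, 13 members were lower and 0 higher, against 11.7% of all genes in each direction. The MT1 arrays lay below both alpha3 arrays for 25 members (51.0%) and above both for 3 (6.12%), against 25.9% and 28% of all genes. Without MT1 replicate 1 the median was -0.11 with 33 below 0, without MT1 replicate 2 it was -0.34, and without alpha3 replicate 2 it was -0.28. Below 0 were 41 members without MT1 replicate 2 and 39 without alpha3 replicate 2. With cyclic loess the median was -0.11 with 34 below 0. In the order of group means, 22 of the 49 members (44.9%) ran MT1 below mock below alpha3, an order that 23.9% of all genes had.

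MRPS2 had the lowest fold change between the siRNAs, with 330 and 444 in the MT1 group against 705 and 742 in the alpha3 group (-0.86, adjusted p = 0.0674). MRPL4 was at -0.77 (adjusted p = 0.0901), MRPL46 at -0.73 (adjusted p = 0.137) and MRPS12 at -0.71 (adjusted p = 0.0770). MRPL46 had 168 and 277 in the MT1 group and 354 and 405 in the alpha3 group. When each probe set was tested on its own, 1 of the 4 probe sets of MRPS12 passed, with 68.2 and 42.4 against 160 and 179 (log2 fold change -1.22, adjusted p = 0.0470). It was the sole one of 59 member probe sets to pass, against 162 of all 11828 probe sets (1.37%), so the members' share was near that of the array. The highest members were MRPL33 (0.66, adjusted p = 0.223), MRPL52 (0.49, adjusted p = 0.235), MRPS15 (0.27) and MRPL44 (0.23). With single arrays left out MRPL33 ran from 0.29 to 1.03, MRPS15 from 0.04 to 0.51 and, on the lower side, MRPL46 from -1.04 to -0.41.

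Other genes of mitochondrial gene expression were taken from lists chosen by function. In limma 0 of their measured members passed in any of the 3 comparisons. Over all genes the share was 0% for MT1 siRNA against mock and 0.0249% for alpha3 siRNA against mock. Between the siRNAs it was 1.39%, so 0 in lists this small was near the share of the array. At an unadjusted p under 0.05 for MT1 siRNA against mock, 6 of the 15 measured assembly factors were lower and 1 was higher. Of the 14 aminoacyl-tRNA synthetases and amidotransferase subunits, 2 were lower. Of the 17 genes of mitochondrial transcription, RNA processing and DNA replication, 2 were lower and 1 was higher. Over all genes tested, 7.66% were lower and 6.76% higher at that p. The assembly factors, which fold and modify the ribosomal RNA and join the subunits, had the lowest median for MT1 siRNA against mock, -0.43 with 13 of 15 below 0, and -0.39 without MT1 replicate 1. MTERF4, which targets an RNA methyltransferase to the ribosome, had 89.9 and 86.6 in mock and 14.5 and 26.5 in the MT1 group (log2 fold change -1.21, adjusted p = 0.164). TFB1M, which dimethylates the small subunit RNA, stood on the other side with 212 and 243 in mock and 348 and 445 in the MT1 group (0.72).

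The 17 genes of mitochondrial transcription, RNA processing and DNA replication had a median of -0.23 with 16 below 0, and -0.39 without mock replicate 2. Without mock replicate 1 the median was -0.17, and without MT1 replicate 1 it was -0.22 with 13 below 0. The replication genes among the 17 were POLG (0.90), POLG2 (-0.05), TWNK (-0.30) and SSBP1 (-0.11). TFB2M, the transcription initiation factor, had 661 and 645 in mock, 250 and 515 in the MT1 group and 816 and 906 in the alpha3 group (-0.80 against mock), and POLG, the catalytic subunit of the mitochondrial DNA polymerase, had 80.6 and 148 in mock and 246 and 223 in the MT1 group. The 14 measured mitochondrial aminoacyl-tRNA synthetases and amidotransferase subunits had a median of -0.22 with 10 below 0, from -0.64 for NARS2 to 0.24 for YARS2. Their median was -0.16 with 8 below 0 without MT1 replicate 1, and -0.26 with 12 below 0 without MT1 replicate 2. The 7 measured translation factors had -0.12 with 4 below 0, from MTIF2 (-0.46) to MTRF1 (0.29), and -0.02 without mock replicate 2. The 3 measured mitoribosomal proteins with other symbols, DAP3 (-0.07), PTCD3 (-0.26) and GADD45GIP1 (-0.31), were all below 0. Without MT1 replicate 1 their median of -0.26 became -0.15, and there, without mock replicate 1 and with cyclic loess 2 of the 3 were below 0.

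**Figure D5:**
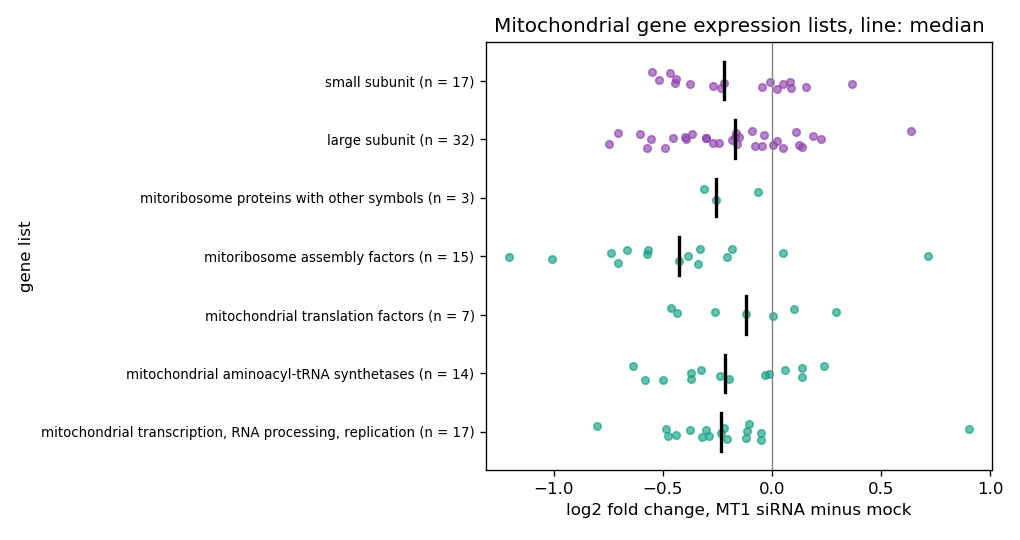
Each point is a gene, placed by its log2 fold change for MT1 siRNA minus mock (horizontal axis), in rows for the members of either subunit (purple) and 5 lists of related genes (green); black lines are medians. The medians run from -0.43 for the assembly factors to -0.12 for the translation factors, and the latter is -0.02 without mock replicate 2.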

How the data were processed

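Total RNA of 6 HT1080 samples, grouped by their titles, had been measured on arrays of 22283 probe sets. The deposited intensity values are linear, and the mean of the middle 96% was 250.1 on each array, so the authors had scaled the arrays. No source used here names the software, the background method or any detection call. Gene symbols came from the platform annotation. Values under 1 were set to 1, log2(value + 32) was taken, a mean above the 40th percentile was required, and a gene was read from its brightest probe set. Group means were fitted to 8045 genes with limma 3.58.1 (R 4.3.3; lmFit, eBayes with an intensity trend), and p-values were Benjamini-Hochberg adjusted over all of them at 0.05. Standard errors (SE) refer to log2 fold changes. On simulated arrays for MT1 siRNA against mock with 8045 genes, the fit recovered 29.4% of genes changed by 1 and 79.8% of those changed by 2 on the log2 scale.

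The members and the gene lists were chosen with earlier results of these data known. Named members are the 6 lowest and 6 highest for MT1 siRNA against mock, the 4 lowest and 4 highest of each other comparison, MRPL12, MRPS12, MRPS18A, MRPS18B, MRPS18C, MRPS30, MRPL41 and MRPL28 by role, up to 6 whose probe sets differ most, and the extremes of each related list. MRPL22, MRPS22, MRPL40, MRPL58, PTCD3, POLG2, TWNK, SSBP1 and all 7 neighbour pairs were added after their values were seen. Alternatives were other scalings, offsets, filters, probe set rules and variance priors, fits of 2 groups, a replicate block and each array left out.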

Additional observations from a re-analysis of the deposited data

How the results depend on the processing

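The median log2 fold change of the members stayed below 0 for MT1 siRNA against mock in all 18 alternatives, from -0.29 without MT1 replicate 2 to -0.0815 without MT1 replicate 1. For MT1 siRNA against alpha3 siRNA it ran from -0.34 to -0.11, both ends again from the MT1 arrays, and for alpha3 siRNA against mock from 0.00 to 0.16. No alternative called a member except every probe set on its own, which called 1 for MT1 siRNA against alpha3 siRNA. Genes called over the whole array moved more. For MT1 siRNA against mock (0 genes) there were 1 with quantile normalization, 3 with an offset of 1, 6 with an offset of 100, 2 with the mean of probe sets, 2 with every probe set, 7 with only the 2 groups compared, and 0 to 8 with single arrays left out. For alpha3 siRNA against mock (2 genes) there were 1 with quantile normalization, cyclic loess, an offset of 100, no filter, every probe set or only the 2 groups, 0 with an offset of 1 or the filter at the 60th percentile, and 0 to 9 with single arrays left out. For MT1 siRNA against alpha3 siRNA (112 genes) there were 74 with an offset of 1, 22 with no filter, 178 with the filter at the 60th percentile, 72 without the intensity trend, and 0 to 83 with single arrays left out. The cause of these moves was not tested. Fits without an array had fewer residual degrees of freedom and left 1 array in a group. Their counts are therefore not comparable with those of the main fit.

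With the replicate number as a block, 11 genes passed for MT1 siRNA against mock, 4 for alpha3 siRNA against mock and 114 between the siRNAs, and 0 members in each. The differences between replicates 1 and 2 correlated across genes at -0.18 for mock with MT1, -0.18 for mock with alpha3 and 0.13 for MT1 with alpha3. Each group gives a single such difference, so these values cannot decide whether the numbers pair the arrays.

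Of the named members, MRPS31 (0.08) turned to -0.0165 with the mean of its probe sets and ranged from -0.0384 to 0.20 with single arrays left out. MRPS10 ranged from -0.12 to 0.43, MRPL44 from -0.16 to 0.54 and MRPL28 from -0.35 to 0.009, all for MT1 siRNA against mock.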
